A study of Mus musculus with 6 samples.

Results

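The Hox genes of mouse were followed in cultured epidermal keratinocytes, with 3 p63 alphaKO libraries (replicates 9, 10 and 11) and 3 wild type libraries (replicates 13, 14 and 15). Members were taken by symbol, Hoxa, Hoxb, Hoxc or Hoxd followed by a number, which gave 39 genes of the 30349 listed. The skin was taken 2 days after birth, and its primary keratinocytes were cultured for 5 to 6 days in medium low in calcium (0.05 mM), with chelated serum at 4% and EGF, a growth factor, at 2.5 ng/mL. The labels do not say which part of Trp63 is missing in p63 alphaKO, which region of the body the skin came from, whether skins were pooled, or whether the libraries of a group are separate animals. The p-values below therefore measure only the spread between these libraries, which may be technical. RNA was read by 3' digital gene expression sequencing, which counts reads near transcript ends, and the unit of level is CPM, the count of a gene scaled to a fixed total per library.

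Hox genes encode homeodomain transcription factors and lie in 4 clusters, named Hoxa to Hoxd. Within a cluster the genes are numbered by paralogue group from 1 at the 3′ end to 13 at the 5′ end. In the embryo, low numbers come on early and toward the head, and high numbers later and toward the tail and the tips of the limbs. Skin cells keep part of that code after birth. It is best known in dermal fibroblasts, and Hoxc13 is in addition a regulator of hair and nail keratinocytes, without which mice lack normal hair.

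Depth set what could be seen. The p63 alphaKO libraries held 1699716 to 2999246 reads and the wild type libraries 3146374 to 3215333 reads. The Hox genes took 3509 reads in all, between 375 and 739 per library. A gene with no read in any library may still have had up to 0.183 CPM, the level of 3 reads in the 16430358 reads of all libraries together. In a single library that limit lay between 1.00 and 1.76 CPM for p63 alphaKO and between 0.933 and 0.953 CPM for wild type. These limits, and the intervals on reads below, cover counting error only. Trp63, the targeted gene, had 49.8, 59.3 and 57.0 CPM in p63 alphaKO, against 38.0, 53.2 and 48.9 CPM in wild type, so its 3' reads do not tell the genotypes apart, and the labels do not say whether they come from the deleted part. The keratinocyte label was matched by its markers, all 10 of which were read, with a sum of 20011 to 28157 CPM in p63 alphaKO and 24378 to 26899 CPM in wild type. A single marker passed the test, the suprabasal keratin Krt1, which fell to 51.01 CPM on average in p63 alphaKO, against 279 CPM in wild type (limma adjusted p = 0.00686). Cells of other kinds were present too. The 12 melanocyte markers, all read, came to sums of 559, 1042 and 235 CPM in p63 alphaKO replicates 9, 10 and 11, against 839, 767 and 314 CPM in wild type replicates 13, 14 and 15. For fibroblasts, 10 of 12 markers were read, with sums of 25.6, 55.3 and 17.1 CPM in p63 alphaKO, against 56.6, 41.3 and 28.0 CPM in wild type, and with Lum and Postn at 0. Muscle markers, 8 of 10 read, summed to 21.0 to 77.0 CPM in p63 alphaKO and to 66.6 to 691 CPM in wild type, highest in replicate 15. In such bulk RNA, fewer cells that express a gene and less RNA per cell cannot be told apart.

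At least 1 read was found for 25 of the 39 Hox genes, and 19 of them reached the mean of 1 CPM over the 6 libraries that a gene needed to be tested. Nearest to that minimum were Hoxb5, at 1.10 CPM, and Hoxa2 below it, at 0.998 CPM. The tested genes were 6 of 11 in Hoxa, 7 of 10 in Hoxb, 6 of 9 in Hoxc and 0 of 9 in Hoxd. By paralogue group they were 4 of 8 members in groups 1 to 3, 11 of 15 in groups 4 to 8 and 4 of 16 in groups 9 to 13. The last 4 were Hoxa9, Hoxb9, Hoxc9 and Hoxc13, so that past group 9 a single gene was above the minimum. The median level of the tested Hox genes was 7.70 CPM, against 22.0 CPM over all 11716 genes tested. A 3' assay gives reads from transcript ends whatever the transcript's length, so CPM was compared between genes without dividing by length.

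**Figure D1:**
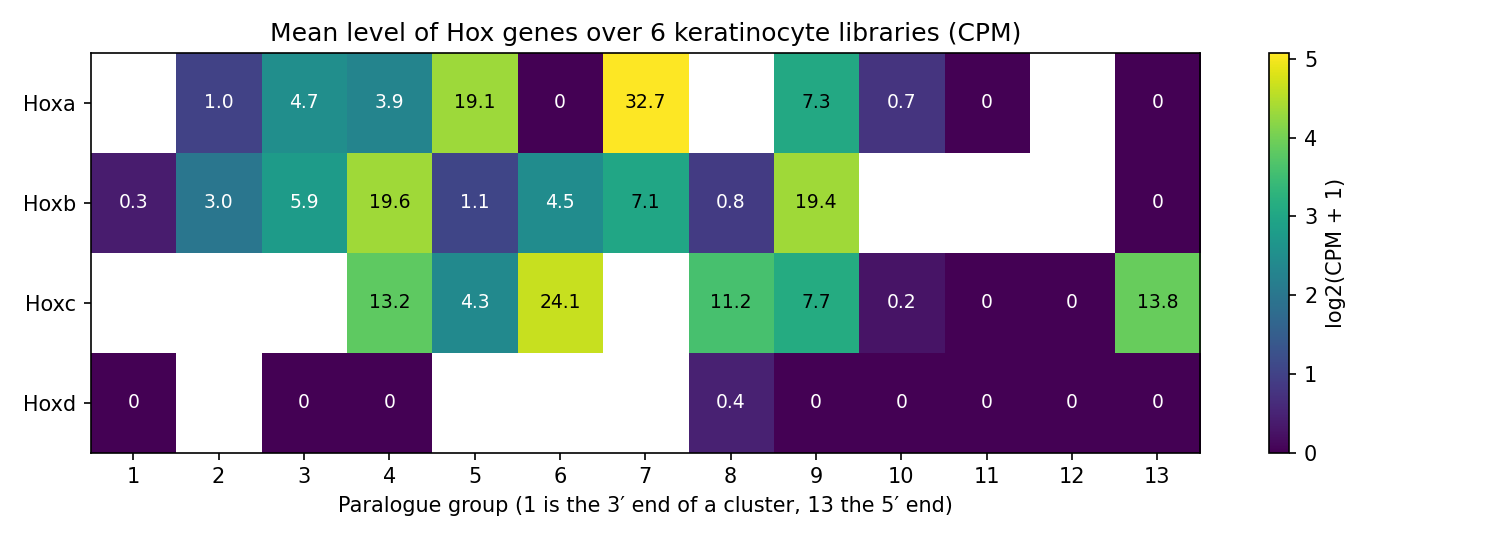
Mean level in CPM over the 6 libraries for Hox genes, by cluster (rows) and paralogue group (columns), with colour on a log2(CPM + 1) scale and white where there is no such gene or no value is shown. Levels are highest in groups 4 to 9 of Hoxa, Hoxb and Hoxc, the Hoxd row is at or near 0, and Hoxc13 at 13.8 CPM stands apart from the empty groups beside it.

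The Hoxd cluster (chromosome 2, 74668310 to 74765142, plus strand, GRCm38) was nearly silent in both genotypes. Hoxd8 was read 2 times in p63 alphaKO replicate 10 and 5 times in wild type replicate 15, and nowhere else. Hoxd1, Hoxd3, Hoxd4, Hoxd9, Hoxd10, Hoxd11, Hoxd12 and Hoxd13 had no read. Hoxd13 and Hoxa13 shape the digits and the genital tubercle, and both were among the 14 Hox genes at 0. The others at 0 outside Hoxd were Hoxa6, Hoxa11, Hoxb13, Hoxc11 and Hoxc12. Evx1 and Evx2, homeobox genes that border the 5′ ends of Hoxa and Hoxd, were at 0 in all 6 libraries as well.

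Of the genes at 0, 3 have a short annotated 3′ UTR, whose part in the absence of reads was not tested. In GENCODE vM21 the longest annotated 3′ UTR is 77 bases in Hoxa6, 92 in Hoxc12 and 30 in Hoxd11, against a median of 966 bases over the 39 Hox genes. Hoxa6 lies between Hoxa5 and Hoxa7, 2 of the most abundant Hox genes here, which were at 19.1 and 32.7 CPM on average. Whether reads of Hoxa6 fell outside its annotated end was not tested, and the annotation the submitters counted on is not given in the sources used here. Exons of another gene cover part of the last 500 bases of 8 members. Hoxa4, Hoxa7, Hoxb2 and Hoxb3 are covered on the opposite strand, Hoxd3, Hoxd4 and Hoxd11 on the same strand, and Hoxa3 on both. The Hoxb2 end is covered 100% by the antisense gene Hoxb3os. Whether counting used strand is not given in the sources used here, so the values of these genes and of their partners are uncertain.

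In Hoxa (chromosome 6, minus strand) Hoxa9 was the last gene above the minimum toward the 5′ end, and Hoxa6 within that stretch had no read. Hoxa7, reported in human keratinocytes as a brake on differentiation genes, was the most abundant Hox gene of the table and ranked 4712 of all listed genes. It was at 38.8, 21.7 and 27.6 CPM in p63 alphaKO replicates 9, 10 and 11, against 30.5, 40.7 and 37.2 CPM in wild type replicates 13, 14 and 15. The groups overlapped, since p63 alphaKO replicate 9 lay above wild type replicates 13 and 15. Hoxa5, which patterns the neck and upper trunk and the lung, was at 11.9, 24.3 and 17.6 CPM in p63 alphaKO and at 18.2, 20.8 and 21.6 CPM in wild type. Its highest and lowest values were both in p63 alphaKO. Hoxa9, a gene of posterior identity and of blood progenitors, was at 5.48, 4.33 and 8.23 CPM in p63 alphaKO and at 7.23, 7.15 and 11.4 CPM in wild type, with overlap.

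Hoxa3 and Hoxa4 were lower. Hoxa3, needed for thymus and parathyroid, was at 3.20, 4.00 and 7.64 CPM in p63 alphaKO and at 3.77, 4.35 and 5.08 CPM in wild type. Hoxa4 was at 1.83, 4.00 and 2.35 CPM in p63 alphaKO and at 3.14, 7.46 and 4.45 CPM in wild type. The groups overlapped for each. Hoxa2, a gene of the second branchial arch, was just under the minimum, with 3, 0 and 2 p63 alphaKO reads and 0, 9 and 2 wild type reads. At the 5′ side the level dropped between neighbours. Hoxa9 was read in all 6 libraries. For Hoxa10, p63 alphaKO gave 3 reads, all in replicate 10, against 10 reads in wild type, all in replicate 15. The ratio of the Hoxa10 read rates, p63 alphaKO over wild type, was 0.416 (exact 95% interval 0.0735 to 1.61). Wild type replicate 15 is also the library with the most muscle RNA, whose part in the Hoxa10 reads was not tested.

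The promoters of Hoxa7, the most abundant gene of the cluster, and of Hoxa13, silent at its other end, are shown to set the sequence beside the level. The 300 bases run from 250 before to 50 after the RefSeq start, on the minus strand of GRCm38.p6, at chr6:52218524-52218823 for Hoxa7 and chr6:52260831-52261130 for Hoxa13. Capitals mark CG dinucleotides, of which there are 9 in the Hoxa7 promoter and 45 in the Hoxa13 promoter.
Hoxa7: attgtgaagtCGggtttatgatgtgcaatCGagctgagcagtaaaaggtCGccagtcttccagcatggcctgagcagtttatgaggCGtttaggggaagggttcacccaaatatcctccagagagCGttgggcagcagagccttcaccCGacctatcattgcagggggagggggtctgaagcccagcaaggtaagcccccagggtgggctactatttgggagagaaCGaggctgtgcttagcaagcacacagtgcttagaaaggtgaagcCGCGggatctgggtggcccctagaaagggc
Hoxa13: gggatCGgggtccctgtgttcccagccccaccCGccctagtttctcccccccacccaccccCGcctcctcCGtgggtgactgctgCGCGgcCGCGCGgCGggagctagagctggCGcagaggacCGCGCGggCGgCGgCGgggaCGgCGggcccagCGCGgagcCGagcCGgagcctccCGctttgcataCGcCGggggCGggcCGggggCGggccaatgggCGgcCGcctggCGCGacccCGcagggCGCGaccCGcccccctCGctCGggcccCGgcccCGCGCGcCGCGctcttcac
The set of RefSeq promoters used here held 24 promoters, which belong to 22 Hox genes. Only 6 of the 19 tested Hox genes had a promoter in that set, and Hoxb9, Hoxc6 and Hoxc13 were among those without. The median number of CG dinucleotides was 11.5 in the 6 promoters of tested Hox genes, 11 in the 6 of genes read below the minimum and 21 in the 12 of genes with no read, against 7 over all 32851 promoters. The range was 4 to 29 for tested genes and 4 to 45 for genes with no read, so these overlapped widely. Most promoters of genes with no read were from Hoxd, and those of tested genes were from the other clusters. Level and cluster were therefore not separated in these medians. The motif TGATNNAT, to which Hox and Pbx proteins can bind as a pair, was searched on both strands, where a single site can match once on each. It was found in 4 of the 24 Hox promoters, 16.7%, against 8.85% of all promoters. These were promoters of Hoxa2, Hoxb1, Hoxb8 and Hoxd11, none of which was tested.

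In Hoxb (chromosome 11, 96194316 to 96368256, plus strand) the most abundant genes were Hoxb4 and Hoxb9, with a stretch of low genes between them. Hoxb4, a gene of the cervical axis and of blood stem cells, was at 23.3, 11.7 and 29.4 CPM in p63 alphaKO and at 16.7, 22.7 and 13.7 CPM in wild type. Hoxb9, which patterns the ribs, was at 27.4, 17.3 and 21.8 CPM in p63 alphaKO and at 19.8, 15.2 and 14.9 CPM in wild type. The groups overlapped for Hoxb4 and for Hoxb9, and for Hoxb9 this was through p63 alphaKO replicate 10 alone. Hoxb6 was at 8.68, 2.67 and 5.88 CPM in p63 alphaKO and at 5.34, 2.18 and 2.54 CPM in wild type. Hoxb3 was at 9.13, 5.33 and 3.53 CPM in p63 alphaKO and at 8.80, 6.53 and 2.22 CPM in wild type. Hoxb2, of the hindbrain, was at 3.65, 1.00 and 2.94 CPM in p63 alphaKO and at 4.08, 1.87 and 4.45 CPM in wild type. All 3 genes overlapped between the genotypes.

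Hoxb7 varied most between libraries. It was at 15.98, 4.67 and 2.94 CPM in p63 alphaKO replicates 9, 10 and 11 and at 1.89, 12.4 and 4.45 CPM in wild type replicates 13, 14 and 15. These values rest on 35, 14 and 5 p63 alphaKO reads and on 6, 40 and 14 wild type reads. The variance of its reads across the 6 libraries was 12.1 times that of counting error alone. The median was 2.93 times for the tested Hox genes and 4.79 times for all genes tested. It was 3.42 times for the tested genes with a mean up to that of the highest Hox gene, which are nearer in level. The high libraries of Hoxb7 were p63 alphaKO replicate 9 and wild type replicate 14, so its spread lay within each genotype.

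Hoxb5, between Hoxb4 and Hoxb6, and Hoxb1, at the 3′ end, had few reads. The reads of Hoxb5 numbered 0, 2 and 1 in p63 alphaKO, against 8, 4 and 5 in wild type, a p63 alphaKO to wild type rate ratio of 0.244 (exact 95% interval 0.0459 to 0.845) on the pooled reads. That interval holds no variation between libraries. Every p63 alphaKO library lay below every wild type library. Hoxb5 reached the minimum for the test only through wild type, at 1.78 CPM on average, against 0.42 CPM in p63 alphaKO. Hoxb1, a hindbrain gene, had no read in p63 alphaKO, which allows up to 0.436 CPM over the 3 libraries, and had 2, 4 and 0 reads in wild type, so a difference was not detectable at this depth.

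Hoxb8, a gene with a role in grooming behaviour and in blood cells, was read in all 6 libraries but at 0.91, 1.33 and 0.59 CPM in p63 alphaKO and at 0.31, 0.93 and 0.95 CPM in wild type. It thus lay far below its neighbours Hoxb7 and Hoxb9. Its transcript carries the best known target site of miR-196, a microRNA encoded within the Hox clusters themselves. The mature microRNAs of the clusters are shown, 5′ to 3′ and from RefSeq, since their genes sit between the measured genes; capitals mark the seed, bases 2 to 8.
mmu-miR-196a-5p: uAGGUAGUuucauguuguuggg
mmu-miR-196b-5p: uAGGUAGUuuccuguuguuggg
mmu-miR-10a-5p: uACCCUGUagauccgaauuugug
mmu-miR-10b-5p: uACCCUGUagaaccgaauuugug
mmu-miR-615-3p: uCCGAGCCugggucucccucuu
The miR-196 forms share a seed and come from Mir196a-1 beside Hoxb9, Mir196a-2 beside Hoxc9 and Mir196b within Hoxa9. The miR-10 forms share another and come from Mir10a beside Hoxb4 and Mir10b within Hoxd4, and Mir615 lies within Hoxc5. Levels of these microRNAs were not analysed here, and their part in the level of Hoxb8 or of any other Hox gene was not tested. The best site for miR-196a in the 3′ UTR of Hoxb8 paired at 21 of 22 bases, with a wobble pair at the 1 left, which faced the seed. Sites were ranked by pairs over the whole microRNA, without regard to the seed. The next best among the 39 genes was in Hoxd8, at 15 of 22, where the seed was not fully paired. The sites of Hoxb8 and of Hoxa7, which pairs at 14 bases including the whole seed, are given with the 7 bases that face the seed in capitals.
Hoxb8: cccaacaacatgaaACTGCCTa
Hoxa7: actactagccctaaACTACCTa
Perfect matches to the miR-196 seed (ACTACCT) lay in the longest 3′ UTR of 9 of 39 Hox genes, 23.1%, against 6.10% of 20956 genes searched. Among them were Hoxa7 with 4 matches, Hoxc8 with 2, and Hoxa5, Hoxa9, Hoxb6 and Hoxb7. Of the 9, 8 were among the tested genes and none was at 0. The miR-10 seed match (ACAGGGT) lay in 4 Hox genes, Hoxa3 and Hoxb3 among them, 10.3% against 12.5% of all genes. The miR-615 match lay in Hoxb4.

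In Hoxc (chromosome 15, 102921103 to 103036852, plus strand) a block from Hoxc4 to Hoxc9 was read, followed by a gap and then Hoxc13. Hoxc6, which marks the thoracic axis, was the most abundant, at 25.1, 15.7 and 30.6 CPM in p63 alphaKO and at 20.1, 23.0 and 29.9 CPM in wild type. Hoxc4 was at 16.9, 12.0 and 17.1 CPM in p63 alphaKO and at 16.97, 8.39 and 7.62 CPM in wild type. Hoxc5 was at 5.48, 1.33 and 4.70 CPM in p63 alphaKO and at 3.14, 4.35 and 6.99 CPM in wild type. The genotypes overlapped for all 3. Hoxc8, a gene of thoracic vertebrae and of limb motor neurons, was at 10.1, 4.33 and 8.23 CPM in p63 alphaKO and at 12.6, 15.9 and 15.9 CPM in wild type. Every p63 alphaKO library lay below every wild type library for Hoxc8. Its neighbour Hoxc9 was at 6.39, 2.33 and 8.82 CPM in p63 alphaKO and at 6.60, 9.64 and 12.4 CPM in wild type, with overlap.

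Past Hoxc9 the cluster fell silent until its last gene. Hoxc10 had no read in p63 alphaKO and 3, 0 and 1 reads in wild type, and Hoxc11 and Hoxc12 had none in any library. Hoxc13 was read in all 6 libraries, at 10.1, 11.7 and 12.3 CPM in p63 alphaKO and at 17.3, 12.1 and 19.4 CPM in wild type. The lowest wild type library was below the highest p63 alphaKO library by a small margin, so the groups overlapped. Hotair, a noncoding RNA between Hoxc11 and Hoxc12, was at 0, as was Hottip, which lies past Hoxa13.

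**Figure D2:**
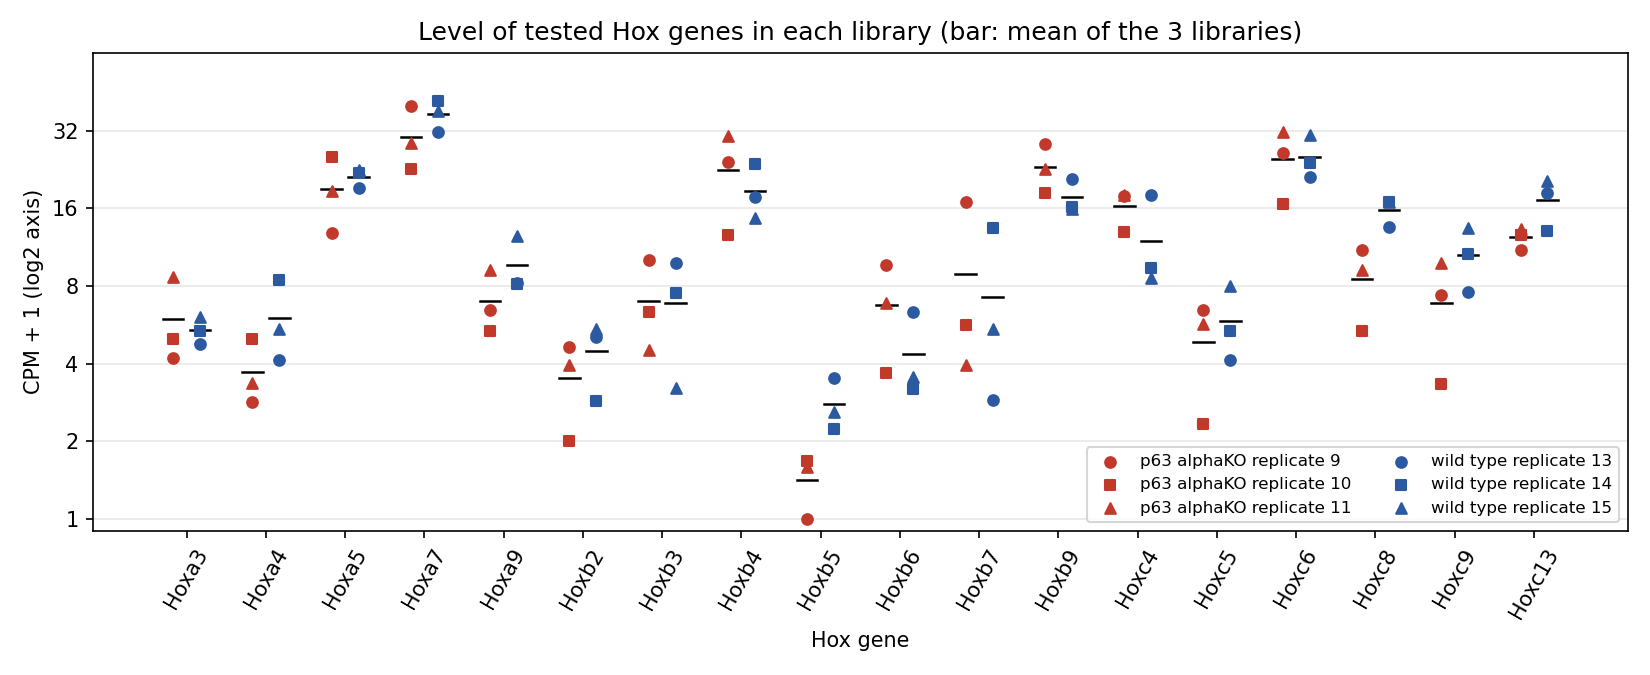
Level of tested Hox genes as CPM + 1 on a log2 axis, with p63 alphaKO libraries (red) left of wild type libraries (blue), 1 symbol per library and a bar at each group's mean. Hoxb5 and Hoxc8 are without overlap, and Hoxb7 has the widest spread within each genotype.

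The comparison of p63 alphaKO with wild type asks whether the genotype altered this code, and no Hox gene passed the test. It was limma on log2(CPM + 1), two-sided, with Benjamini-Hochberg adjustment over all 11716 genes and a threshold of 0.05, and fold changes are log2, as p63 alphaKO minus wild type. On this scale the change of a low gene is understated. Of the 19 tested Hox genes 0 passed, against 0.0427% of all genes (5 genes), 0.0341% higher and 0.00854% lower in p63 alphaKO. edgeR, which called 0.0171% of all genes, and DESeq2, which called 0.157%, called 0 Hox genes. DESeq2 gave an adjusted p for 18 of them and none for Hoxb5. At an unadjusted p under 0.05 limma had 1 Hox gene, Hoxc8, lower in p63 alphaKO, against 6.36% of all genes (3.01% higher and 3.35% lower). The groups did not overlap for 3 of 19, 15.8%, all lower in p63 alphaKO, against 11.5% of all genes (6.45% higher and 5.09% lower). Hoxb5, among them, reached the minimum only through wild type, so its place and direction in this count depend on that filter. With so few genes, the counts in either direction are near this background. The share lower in p63 alphaKO, 15.8% against 5.09%, was above it, but rests on 3 genes with Hoxb5 among them.

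Hoxc8 averaged 7.54 ± 2.92 CPM in p63 alphaKO and 14.8 ± 1.90 CPM in wild type (SD, n = 3 each), a log2 fold change of -0.94 (SE 0.38, limma adjusted p = 0.758). Without p63 alphaKO replicate 10 it was -0.64. Hoxb5 had a log2 fold change of -0.98 (SE 0.61, limma adjusted p = 0.855), a value that moves with the pseudocount since Hoxb5 had 3 reads in p63 alphaKO. The adjusted p of the tested Hox genes ran from 0.758 to 0.997. Their intervals were wide: for Hoxa7, the best measured, the 95% interval of the log2 fold change was -0.94 to 0.30, and for Hoxb7 it was -0.98 to 1.54. These intervals are for each gene alone, without adjustment for the number of genes. All but that of Hoxc8, -1.75 to -0.13, leave room for differences of either sign.

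**Figure D3:**
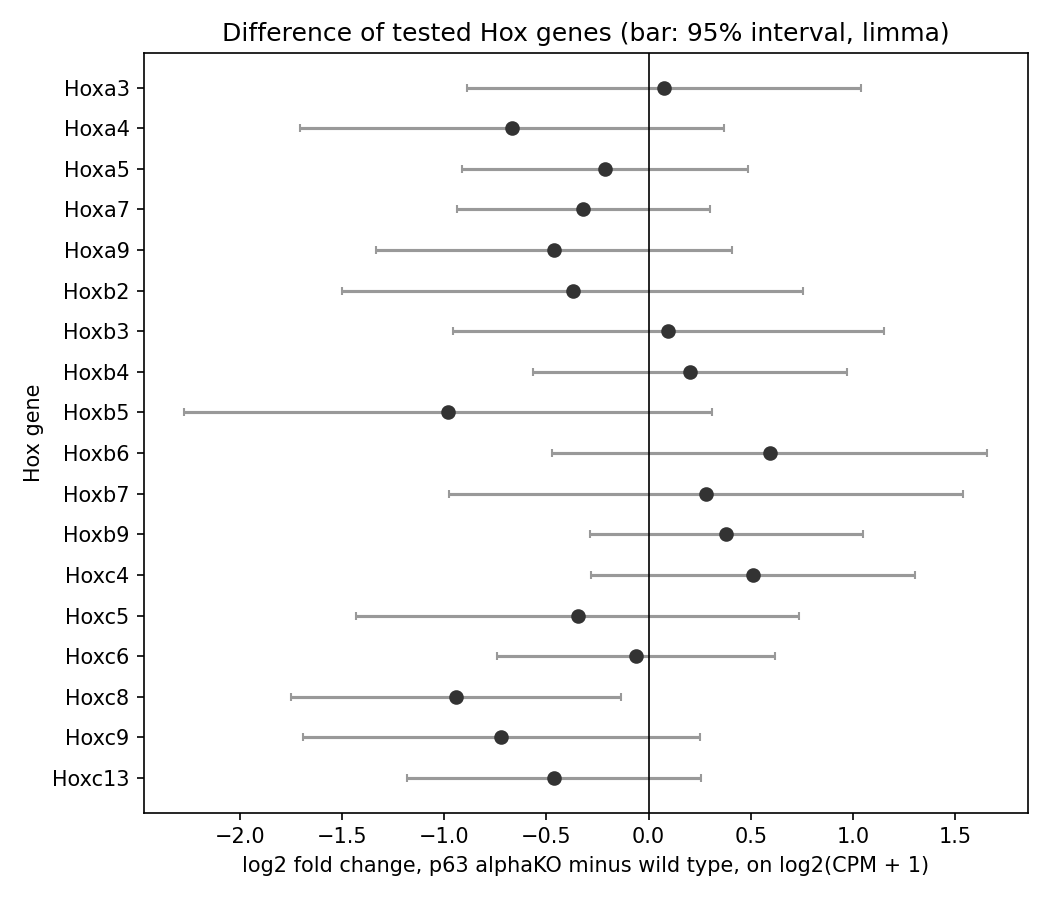
Log2 fold change of tested Hox genes, p63 alphaKO minus wild type, with its 95% limma interval, in cluster order from top to bottom. All intervals but that of Hoxc8 reach across 0, and no adjusted p passed the threshold.

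By cluster, 5 of 6 tested Hoxa genes and 5 of 6 Hoxc genes had a fold change below 0, against 2 of 7 Hoxb genes. Over the 19 genes 12 were below 0 and 7 above, with a median of -0.32, while the median over all genes tested was 0.0064, with 49.3% below 0 and 50.7% above. That median rested on a single library. Without p63 alphaKO replicate 10 it was -0.0063, with 10 genes below 0 and 9 above, and in the other fits that left out 1 library it lay between -0.39 and -0.20.

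p63 alphaKO replicate 10 had less Hox RNA than any other library. The sum over the 39 genes was 233, 158 and 220 CPM in p63 alphaKO replicates 9, 10 and 11, against 213, 230 and 233 CPM in wild type replicates 13, 14 and 15. The counting interval of replicate 10, 144 to 173 CPM, met none of the others, whose lower ends were at 197 CPM or more. Of the 19 tested genes 9 had their lowest value in that library and 1, Hoxa5, its highest. It is also the library with the most melanocyte RNA (1042 CPM, against 235 to 839 CPM in the other 5), while its keratinocyte markers at 25400 CPM were within the range of the rest. The part of the melanocytes in its Hox level was not tested. Wild type replicate 13, next in melanocyte RNA at 839 CPM, summed to 213 CPM of Hox. The library with the least melanocyte RNA, p63 alphaKO replicate 11 at 235 CPM, summed to 220 CPM of Hox.

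**Figure D4:**
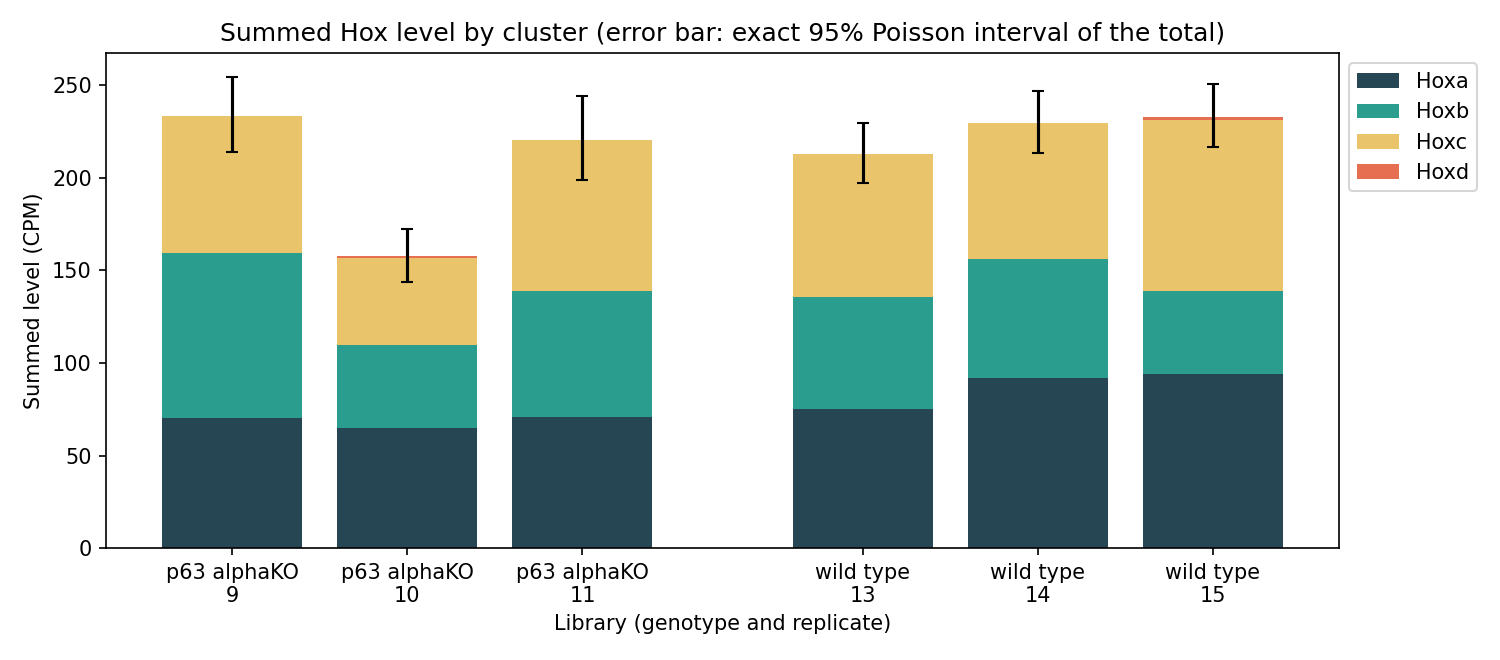
Summed level of the Hox genes in CPM per library, stacked by cluster, with p63 alphaKO libraries left of wild type libraries and the exact 95% Poisson interval of each total. p63 alphaKO replicate 10 is the lowest at 158 CPM, and the Hoxd part is barely visible.

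The share of Hox RNA was also taken by paralogue group. Groups 4 to 8 took a share of the Hox reads of 67.2 ± 0.790% in p63 alphaKO and 65.0 ± 4.17% in wild type (SD, n = 3 each). Groups 9 to 13 gave 22.5 ± 1.21% in p63 alphaKO and 23.3 ± 3.73% in wild type, and groups 1 to 3 gave 10.3 ± 0.459% in p63 alphaKO and 11.6 ± 2.15% in wild type. The differences between these pooled shares were smaller than the SD of the wild type libraries. For groups 1 to 3 and 4 to 8 they were larger than the SD of the p63 alphaKO libraries. Each of these shares overlapped between the genotypes. Within groups 9 to 13 the clusters are given apart, and the Hoxd genes had no read. The Hoxa genes took 2.35, 3.38 and 3.73% of Hox reads in p63 alphaKO, against 3.39, 3.11 and 6.28% in wild type, with overlap. The Hoxb genes, of which only Hoxb9 had reads, took 11.7, 11.0 and 9.87% of Hox reads in p63 alphaKO, against 9.29, 6.63 and 6.41% in wild type, without overlap. In CPM, Hoxb9 overlapped between the genotypes. The Hoxc genes took 7.05, 8.88 and 9.60% in p63 alphaKO, against 11.7, 9.47 and 13.8% in wild type, with overlap at p63 alphaKO replicate 11. In level, those Hoxc genes came to 16.4, 14.0 and 21.2 CPM in p63 alphaKO, against 24.8, 21.8 and 32.1 CPM in wild type, without overlap. No test was made of these sums, which are some of many formed, and 11.5% of all single genes tested were without overlap. Hoxa came to 70.3, 65.0 and 71.1 CPM in p63 alphaKO, against 75.4, 92.0 and 94.0 CPM in wild type, without overlap. Hoxb came to 89.0, 44.7 and 67.6 CPM in p63 alphaKO, against 60, 64.3 and 44.8 CPM in wild type, with overlap. Hoxc came to 74.0, 47.3 and 81.7 CPM in p63 alphaKO, against 77.6, 73.4 and 92.4 CPM in wild type, with overlap too. Across the 19 genes, Pearson correlations of log2(CPM + 1) between libraries were 0.753 to 0.855 within genotypes and 0.683 to 0.871 between them. Genes are not independent replicates, and these values only describe how alike the profiles were.

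The noncoding RNAs of the clusters included the most abundant transcript found there. Hotairm1, transcribed from the strand opposite to the Hoxa genes (chromosome 6, 52156902 to 52162119, plus strand), is known as a regulator of the Hoxa genes in myeloid cells. It was at 74.4, 70.0 and 120 CPM in p63 alphaKO and at 72.0, 70.3 and 103 CPM in wild type, and its mean over the 6 libraries, 85.1 CPM, was above that of any coding Hox gene. The highest library of each genotype was p63 alphaKO replicate 11 and wild type replicate 15. Hoxaas3, antisense to Hoxa3 to Hoxa7, was at 4.11, 1.67 and 4.70 CPM in p63 alphaKO and at 0.63, 0.31 and 0.64 CPM in wild type, without overlap. Its log2 fold change was 1.49 (SE 0.57, limma adjusted p = 0.729), on 22 p63 alphaKO reads and 5 wild type reads. Exons of Hoxaas3 cover 33.6% of the Hoxa7 ends examined, on the other strand, so reads of the pair cannot be told apart if strand was not used. Of 29 noncoding and Evx symbols looked for, 13 were listed, 6 were tested, 3 above and 3 below 0 (median -0.03), and 0 passed. Gm53 (-0.32), Hoxb3os (-0.32) and Halr1 (-0.15) were the others of smallest p. Halr1 was not among the genes annotated within the clusters.

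Hox proteins bind DNA with TALE homeodomain partners of the Pbx, Meis and Pknox families. All 9 TALE genes were read, 8 were tested, 6 above and 2 below 0 (median 0.17), and 0 passed. Pbx2 was at 54.3, 47.0 and 47.0 CPM in p63 alphaKO and at 36.5, 39.8 and 50.2 CPM in wild type, with a log2 fold change of 0.24 (SE 0.26, limma adjusted p = 0.930). Meis1 (0.57), Pbx4 (0.69) and Pknox1 (0.27) were the others of smallest p, and all overlapped between the genotypes. The TALE genes together gave 308, 294 and 246 CPM in p63 alphaKO, against 242, 281 and 256 CPM in wild type.

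**Figure D5:**
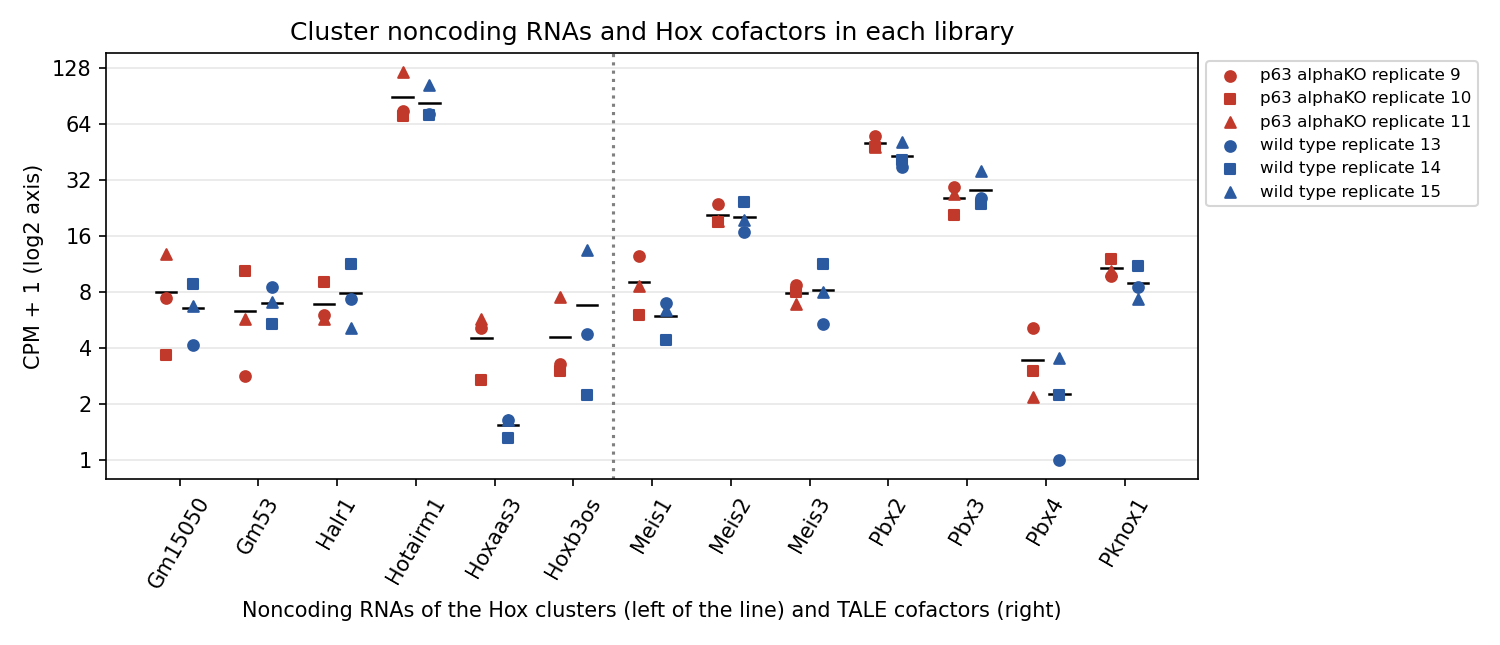
Level of the 6 tested noncoding RNAs listed with the Hox clusters (left of the dotted line) and tested TALE cofactors (right) as CPM + 1 on a log2 axis, p63 alphaKO (red) left of wild type (blue), 1 symbol per library and a bar at each mean. Halr1 is not annotated within a cluster. Hoxaas3 is the gene without overlap, and Hotairm1 is the most abundant RNA of the clusters.

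Genes that set or keep Hox expression were read in most cases and none passed. Cdx1, Cdx2 and Cdx4, which switch on Hox genes in the early embryo, were at 0 in all libraries, as were the retinoic acid genes Rarb and Cyp26a1. Other retinoic acid genes of the list were read, with Rara, Rarg and Cyp26b1 at 6.90, 104 and 104 CPM on average over the 6 libraries. Of 34 regulators 27 were tested, 7 above and 20 below 0 (median -0.24), and the groups did not overlap for 2 of them, 7.41% against 11.5% of all genes. Gdf11, a ligand that turns on posterior Hox genes in the trunk, was at 4.11, 9.66 and 2.94 CPM in p63 alphaKO and at 0.94, 2.49 and 1.27 CPM in wild type (log2 fold change 1.27, SE 0.54, limma adjusted p = 0.758). Suz12, a core subunit of the Polycomb complex that keeps silent Hox genes off, was at 116, 129 and 50.6 CPM in p63 alphaKO and at 134, 129 and 137 CPM in wild type (-0.55, SE 0.30, limma adjusted p = 0.816). The p63 alphaKO value of 50.6 CPM was that of replicate 11, without which the log2 fold change of Suz12 was -0.13. Suz12 is one of the regulators without overlap, by a margin of 128.97 CPM in p63 alphaKO replicate 10 to 129.32 CPM in wild type replicate 14. Wdr5 (-0.64), a subunit of the complexes that keep active Hox genes on, and Hmgb3 (-0.74) completed the 4 of smallest p, with overlap.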

How the data were processed

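The authors deposited CPM for each library, as the values show. The tools STAR and HTSeq and the build mm10 are listed, without roles, per the submitters' processing notes. Versions, annotation, strand setting and any molecular identifiers were not given in the sources used here. Dividing by what 1 read is worth returned whole reads for 100% of values above 0 (tolerance 0.1 read), 1699716 to 3215333 per library, and such reads can be copies of the same molecule. All 6 columns were used, each mapped to a library by its title.

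Genes averaging 1 CPM or more were tested with limma 3.58.1 (R 4.3.3, eBayes with a mean-variance trend) on log2(CPM + 1), with Benjamini-Hochberg adjustment over all 11716. edgeR 4.0.16 and DESeq2 1.42.0 on the recovered reads, with other pseudocounts, minima, TMM scaling, no trend and libraries left out, were alternatives. The fit was checked on simulated counts. Intervals on reads are exact (Poisson, or conditional binomial for rate ratios). Members and lists were chosen with earlier results of these data known. Hox genes above the minimum are given in every library, and up to 4 genes of smallest p from each other list; a few genes are counted but not reported here. Coordinates are GENCODE vM21 on GRCm38, the build of mm10, and promoters and microRNAs are RefSeq GRCm38.p6.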

Additional observations from a re-analysis of the deposited data

How the results depend on the processing

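No Hox gene passed under any of the 15 alternatives run, by limma, edgeR or DESeq2, with 0 to 2 at an unadjusted p under 0.05. The number of all genes past the threshold, 5 in the fit reported, was 2 with a pseudocount of 0.5 CPM, 3 with 5 CPM, 1 with no minimum, 2 with a minimum of 5 CPM, 2 by edgeR, 18 by DESeq2, 31 with p63 alphaKO replicate 11 and wild type replicate 15 both left out, and 0 by limma with no trend, where 827 genes had an unadjusted p under 0.05. With 1 library left out it ran from 2 to 12 (without p63 alphaKO replicate 10 it was 3 and without replicate 11 it was 12, while leaving out wild type replicate 13 or 14 gave 2). The median log2 fold change of the tested Hox genes ran from -0.39 to -0.0063 with 1 library left out, the last value without p63 alphaKO replicate 10. Among 39 genes followed, 18 of 571 values changed sign, all with libraries left out. With 1 left out, the ranges were -0.33 to 0.87 for Hoxb7, -0.45 to 0.037 for Hoxa5, -0.38 to 0.43 for Hoxb3, -0.062 to 0.57 for Hoxb4, -0.23 to 0.29 for Hoxa3, -0.62 to 0.11 for Hoxc5, -0.26 to 0.20 for Hoxc6, -0.77 to 0.16 for Gm53, -0.93 to 0.36 for Hoxb3os, -0.42 to 0.15 for Halr1 and -1.60 to 0.18 for Pax3. With p63 alphaKO replicate 11 and wild type replicate 15 both left out, Hoxb4 was at -0.22, Hoxa3 at -0.14 and Hoxb3 at -0.10. The causes were not tested. The alternatives were chosen with earlier results of these data known. No paired analysis was possible because the groups share no replicate numbers.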

Other observations

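Genes that mark a body site in skin beside the Hox code mostly stayed under the minimum. Of 37 such genes, 14 had no read in any library, among them the forelimb gene Tbx5 and Hand2, and 9 were tested, 2 above and 7 below 0 (median -0.31), with 0 past the threshold by limma, edgeR or DESeq2 and 0 at an unadjusted p under 0.05. Irx3 and Irx5, Iroquois homeobox genes, were the ones of larger level among the 4 of smallest p, Irx5 at 40.6, 50.7 and 58.2 CPM in p63 alphaKO and at 38.0, 45.4 and 38.1 CPM in wild type (log2 fold change 0.28), and Irx3 at -0.29. Emx2, a homeobox gene of limb girdle and brain, was at 0.00, 0.33 and 4.11 CPM in p63 alphaKO and at 5.03, 2.49 and 4.13 CPM in wild type, so that p63 alphaKO replicate 11 lay level with wild type (log2 fold change -1.33, SE 0.64, limma adjusted p = 0.778). Pax3, a gene of melanocytes too, stood at -0.73 and had its highest value, 10.7 CPM, in p63 alphaKO replicate 10, the library with the most melanocyte RNA.

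Genes reported as Hox targets in skin were listed for 22 of 24 symbols and tested for 11, 3 above and 8 below 0 (median -0.06), and 0 passed. Foxn1, a hair and epidermal differentiation factor reported downstream of Hoxc13, was at 48.9, 31.99 and 30.6 CPM in p63 alphaKO and at 25.1, 24.6 and 22.9 CPM in wild type, without overlap (log2 fold change 0.57, SE 0.29, limma adjusted p = 0.794), while Hoxc13 itself had a fold change below 0 (-0.46). The keratins Krt35, Krt26, Krt33a and Krt34 of this list were at 0 in all libraries. Krt81 had 5 reads, all in wild type replicate 15, and Krt86 had 1 read in p63 alphaKO and 9 in wild type. Msx2 was at 2.28, 0.67 and 4.70 CPM in p63 alphaKO and at 9.74, 15.2 and 11.4 CPM in wild type (-2.04, SE 0.49, limma adjusted p = 0.324), Bmp2 stood at -1.13 and Bmp4 at -0.69. With 1 library left out, Bmp2 ran from -1.57 to -0.73, the smaller without p63 alphaKO replicate 11, and Bmp4 from -1.19 to -0.12, the smaller without wild type replicate 14.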
